A study of Mus musculus with 146 samples.

Results

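Germ cells of the newborn mouse ovary that carried Ddx4, the gene of a germ cell RNA helicase, but less than 1 TPM of the zona gene Zp3 were compared by their level of Dppa3. TPM is a unit of transcript abundance that allows for transcript length and has the same total in every library. A cell entered the comparison if Ddx4 was at least 1 TPM and Zp3 below 1 TPM, which 86 cells met. These cells are not free of zona gene expression, since another zona gene, Zp2, reached 1 TPM in 39 of them. Of these 86 cells, 49 had at least 100 TPM of Dppa3 and are called Dppa3-high, and 21 had less than 10 TPM and are called Dppa3-low. The 70 cells compared were therefore 50.4% of the cells of the series, and applied to single libraries before repeats were merged the same limits took 53 Dppa3-high and 21 Dppa3-low of 146. Of those 53, 1 library was merged with a repeat that was past the Zp3 limit, and that cell is not among the 49. The other 16 of the 86 cells had 10 TPM or more but under 100 TPM of Dppa3 and belong to neither group. They are called middle cells, and their values are given beside the groups. A further 52 cells had at least 1 TPM of Zp3 and serve as a reference, and 1 cell in which Ddx4 was 0 was left out.

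All cells came from the ovaries (n = 5) of newborn C57/BL6J females of 1 litter at day 0.5, with no genetic change and no treatment in any group. The ovaries were digested, germ cells were picked by eye under a microscope, and the polyadenylated RNA of each cell was amplified and sequenced by Smart-seq2, a full-length single-cell method. Per the study, the amplified cDNA was first screened by PCR for Vasa (Ddx4) and the pregranulosa marker Foxl2. Libraries positive for Foxl2 were left out before sequencing. The labels name no animal, so the cells are treated as 1 sample. The comparison has no replicate, no p-value is given, and the spread shown is that between cells. A gene is counted as higher or lower where the mean TPM of the groups, with 1 TPM added to each, differed at least 2-fold. All such differences are given as the log2 ratio of Dppa3-high over Dppa3-low, so that 1.00 on the log2 scale is 2-fold.

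The series holds 146 libraries, and 7 pairs of them were so alike that each pair was averaged and counted as 1 cell. Within these pairs Pearson's r across 13811 genes was 0.989 to 0.996, whereas no other pair of libraries reached more than 0.809. There were 3 such pairs among the Dppa3-high cells, 3 among the middle cells, 1 with a mean of at least 1 TPM of Zp3 and none among the Dppa3-low cells. Counting each library as a cell gave 697 higher and 664 lower genes, against 676 and 692 with the pairs merged. The groups were of similar depth, with a median of 9570550 assigned reads in Dppa3-low and 9089770 in Dppa3-high cells. A median of 11365 (6728 to 14074) and 10787 (4682 to 14035) genes reached 0.1 TPM. The share of reads from spike-ins, RNA standards added to each cell, had a median of 0.343% (0.144 to 0.914%) and 0.465% (0.171 to 1.23%). The mitochondrial share of reads had a median of 5.22% (0.890 to 8.77%) and 6.21% (0.214 to 21.1%), so that the highest shares were in Dppa3-high cells. The part of these library measures in the differences was not tested. In the Dppa3-low group 1 library, S126, held 324516 TPM of globin RNA from red blood cells.

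Dppa3, also called Stella, encodes a small chromatin protein that marks primordial germ cells, is reduced in meiotic germ cells and accumulates again in oocytes, from which it passes to the egg. There it is known to protect the maternal genome from loss of DNA methylation, and in the oocyte it keeps the methylation cofactor UHRF1 out of the nucleus. Oocytes build the zona pellucida, the glycoprotein coat of the egg, once they are enclosed in follicles, and Zp3 encodes a main component of it. Around birth, germ cells leave the interconnected cysts in which they went through early meiotic prophase and become enclosed in primordial follicles, a step that needs the transcription factors Sohlh1, Figla, Lhx8 and Nobox.

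Dppa3 chose the groups, so its level is a description only. Its gene lies at chr6:122626410-122630272 on the plus strand of GRCm38. In Dppa3-low cells Dppa3 ran from 0 to 7.41 TPM with a median of 0.483 TPM, and 15 of the 21 cells were below 1 TPM. In Dppa3-high cells it ran from 114.01 to 4199 TPM with a median of 400.4 TPM, and 9 of the 49 cells exceeded 1000 TPM. The values nearest to the limits were 7.10 and 7.41 TPM inside and 11.3 TPM outside the lower limit, and 114.01 and 118.1 TPM inside and 91.5 TPM outside the upper limit. All 52 cells with Zp3 had at least 119.2 TPM of Dppa3. Zp3 itself stayed at 0 in 54 of the 86 cells and reached 0.743 TPM at most, against 1.06 TPM in the lowest of the other cells. Ddx4 did not separate the groups, with a median of 313 TPM in Dppa3-low and 225 TPM in Dppa3-high cells and no value below 38.4 TPM.

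**Figure D1:**
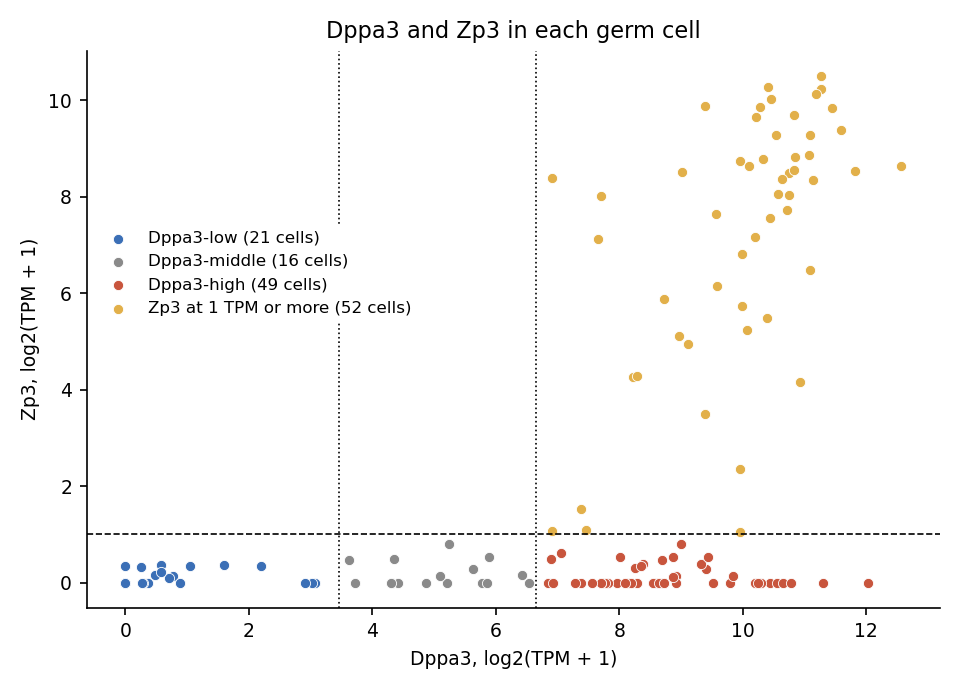
Dppa3 (horizontal) against Zp3 (vertical) in each germ cell with Ddx4, both as log2(TPM + 1), with 1 point per cell and the rule's limits as broken lines. The 52 cells with Zp3 all lie at or beyond the upper Dppa3 limit, and the 86 cells below the Zp3 limit spread from 0 to 4199 TPM of Dppa3.

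Across the 7324 coding genes with enough expression to be compared, 676 (9.23%) were higher and 692 (9.45%) were lower in Dppa3-high cells, 18.7% in all. Of these, 454 higher and 446 lower genes were also past 2-fold between mean log2 levels and when any 1 cell was left out. The balance of the 2 directions depended on the scaling. Higher genes were 49.4% of those called here, but 28.03% (657 higher, 1687 lower) between means of log2(TPM + 1) and 29.9% (490 higher, 1149 lower) relative to the spike-ins, RNA standards added to each cell. The median gene shifted by -0.06 here, by -0.35 on the mean log2 scale and by -0.29 relative to the spike-ins. No gene separated the groups completely. The mean of the middle cells, which neither group used, lay between the group means for 519 of the 676 higher and 545 of the 692 lower genes.

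**Figure D2:**
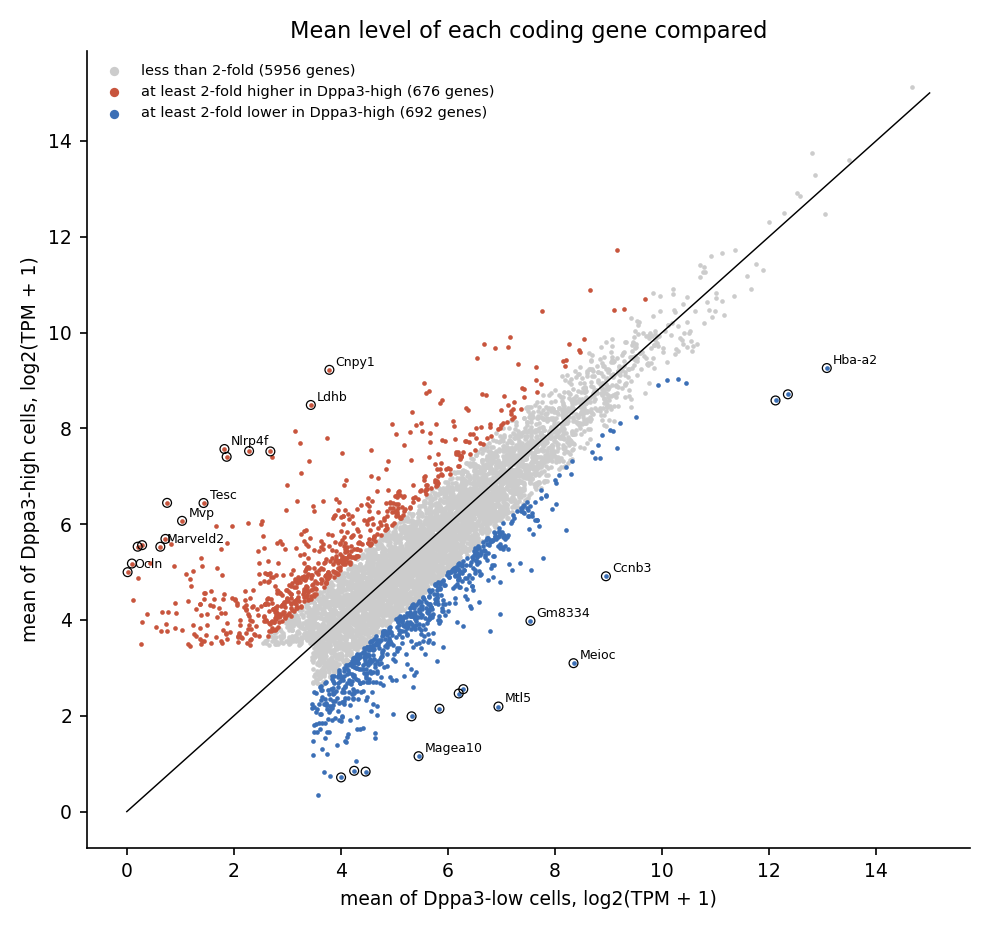
Mean level of each of the 7324 genes in Dppa3-low cells (horizontal) and Dppa3-high cells (vertical), as log2 of mean TPM plus 1, with 1 point per gene and the line of equal means. The 676 higher genes are red, the 692 lower genes blue, and circles mark the 30 genes with the largest stable ratios, of which some are labelled.

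Among the genes with the largest ratios, those that were higher in Dppa3-high cells are described singly, since no grouping of them was tested. Nlrp4f, an oocyte member of the Nlrp family (chr13:65177111-65205977), had a log2 ratio of 5.74. It lay between 0 and 39.2 TPM with a median of 0 in Dppa3-low cells, and between 0 and 882 TPM with a median of 122.8 TPM in Dppa3-high cells. The highest cells were all Dppa3-high, and 34 of the 49 exceeded every Dppa3-low cell. Its low-group mean rested largely on cell S088, without which the log2 ratio was 6.79, and reads shared with near-identical Nlrp4 relatives may be split among them. Pdzk1, a scaffold protein of membrane transporters (chr3:96829284-96870926), had a median of 0 and a highest value of 13.7 TPM in Dppa3-low cells, against 53.6 and 312 TPM in Dppa3-high cells. In 31 Dppa3-high cells it was above all Dppa3-low cells, and the log2 ratio was 5.69, or 6.398 without cell S050. Cnpy1 (chr5:28200819-28245806) had a log2 ratio of 5.44 and differed already in the middle cells. Its medians were 0.327 TPM in Dppa3-low, 116.8 TPM in middle and 341 TPM in Dppa3-high cells, and without cell S050 the log2 ratio was 6.15.

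Gja4, Ocln and Marveld2, of the same genes, each encode a cell junction protein, and junction genes as a group were not tested. Gja4, which encodes the gap junction protein connexin 37 that couples oocyte and granulosa cells, lay between 0 and 2.21 TPM in Dppa3-low cells and between 0 and 219.5 TPM, with a median of 27.6 TPM, in Dppa3-high cells. It was above every Dppa3-low cell in 31 of the 49 cells and at or near 0 in most of the others. Ocln, which encodes the tight junction protein occludin, did not exceed 0.0744 TPM in any Dppa3-low cell, and reached 388 TPM with a median of 3.36 TPM in Dppa3-high cells. Marveld2, which encodes another tight junction protein, tricellulin, had a median of 0 TPM and a highest value of 6.54 TPM against 27.7 and 286 TPM. These genes were on in only some of the Dppa3-high cells, since Gja4 reached 1 TPM in 31, Ocln in 26 and Marveld2 in 34 of the 49. Their log2 ratios were 5.33, 4.98 and 4.90.

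Ldhb, which encodes a lactate dehydrogenase subunit, was at a median of 0.643 TPM (0 to 100.5 TPM) in Dppa3-low cells and 158 TPM (0 to 2287 TPM) in Dppa3-high cells. The groups overlapped, with 33 Dppa3-high cells above all Dppa3-low cells, and the log2 ratio was 5.05, or 5.83 without cell S136. Mvp, which encodes the major vault protein, had a log2 ratio of 5.04, and Tesc, which encodes the calcium-binding protein tescalcin, 5.01. Zbed3, a partner of the subcortical maternal complex, was at a median of 0.344 TPM in Dppa3-low and 119.7 TPM in Dppa3-high cells and exceeded every Dppa3-low cell in 39 of 49 (log2 ratio 4.84). The remaining genes chosen by size were Tuba1c (5.54), an alpha-tubulin that shares reads with its close copies, Mtus2 (5.28), a microtubule-associated protein, Syne2 (5.24, or 6.25 without cell S136), a nuclear envelope linker, Th (5.08), tyrosine hydroxylase, and Pdzd2 (4.97). All of them overlapped between the groups, and each was listed at 0 TPM in some Dppa3-high cells.

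Genes lower in Dppa3-high cells included genes of meiosis. Meioc, which encodes a germ cell RNA regulator that keeps cells in meiotic prophase (chr11:102663716-102682237), had the largest stable ratio among them. Its level was 0.0329 to 1219 TPM with a median of 228 TPM in Dppa3-low cells, a median of 53.8 TPM in middle cells, and 0 to 69.9 TPM with a median of 0 in Dppa3-high cells. In 15 of the 21 Dppa3-low cells Meioc was above every Dppa3-high cell. The log2 ratio was -5.25, a 38.02-fold higher level in Dppa3-low cells. Mtl5, a tesmin-type testis protein gene, had a median of 86.2 TPM (0 to 661 TPM) against 0 TPM (0 to 36.1 TPM) and a log2 ratio of -4.75. Ccnb3, cyclin B3, a cyclin of meiosis (chrX:6979652-7041619), was found in every Dppa3-low cell at 1.26 to 1833 TPM with a median of 271 TPM. Its median was 139.02 TPM in middle and 14.5 TPM in Dppa3-high cells, where its highest value was 161 TPM. The log2 ratio of Ccnb3 was -4.04.

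Magea10, a melanoma antigen family gene on the X chromosome (chrX:72381870-72386858), reached 1 TPM in 12 of 21 Dppa3-low cells but in only 2 of 49 Dppa3-high cells. Those shares were 57.1% (95% exact binomial interval 34.02 to 78.2%) and 4.08% (0.498 to 13.98%), intervals that cover counting error only. Its log2 ratio was -4.29, and reads of Magea relatives may be split among them. The list went on with Lypd4 (-3.74), Ctps2 (-3.73), a CTP synthase, Otud6a (-3.69), a deubiquitinase gene, Rhoc (-3.63, or -4.27 without cell S104), a small GTPase, Gm8334 (-3.56), Glrb (-3.40), a glycine receptor subunit, and Samd12 (-3.29). The globin genes Hba-a2, Hbb-bs and Hba-a1 met the same rule at -3.82, -3.64 and -3.54, but without library S126 they were at -1.24, -1.34 and -1.15, and their near-identical copies share reads. The summed level of 10 blood and endothelial markers had a median of 41.5 TPM in Dppa3-low and 40.7 TPM in Dppa3-high cells.

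Of the genes of basic helix-loop-helix factors described here, Sohlh1, Figla, Bhlhe41 (2.61) and Hes6 (1.35) were higher in Dppa3-high cells. Sohlh2 was at -0.80, and the class was not tested. The stretch of 250 bases before the gene start is shown for 2 of the named genes of each direction. These windows were taken from RefSeq on GRCm38.p6 and are written on the strand of the gene. Capitals mark CANNTG, the E-box bound by basic helix-loop-helix factors such as SOHLH1 and FIGLA, where N is any base. The windows shown are those of the first named genes, other than globins, with 1 window that ends at a gene start shared by RefSeq and the GENCODE annotation.
Tuba1c, higher, chr15:99029641-99029890, plus strand: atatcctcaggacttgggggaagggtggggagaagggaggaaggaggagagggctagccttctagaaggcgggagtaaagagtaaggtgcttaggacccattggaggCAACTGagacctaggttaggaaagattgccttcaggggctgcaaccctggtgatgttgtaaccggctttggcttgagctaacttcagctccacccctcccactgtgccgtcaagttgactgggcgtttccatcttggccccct
Gja4, higher, chr4:127314040-127314289, minus strand: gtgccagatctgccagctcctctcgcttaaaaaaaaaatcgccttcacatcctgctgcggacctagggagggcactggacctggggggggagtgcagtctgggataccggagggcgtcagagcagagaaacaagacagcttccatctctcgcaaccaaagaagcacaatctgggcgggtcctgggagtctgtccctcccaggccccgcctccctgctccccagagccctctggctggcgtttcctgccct
Magea10, lower, chrX:72386859-72387108, minus strand: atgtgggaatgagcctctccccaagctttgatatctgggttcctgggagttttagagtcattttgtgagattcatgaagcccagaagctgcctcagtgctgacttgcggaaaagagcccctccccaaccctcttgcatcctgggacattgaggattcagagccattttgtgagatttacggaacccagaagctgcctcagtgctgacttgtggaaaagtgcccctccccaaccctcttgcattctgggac
Glrb, lower, chr3:80913661-80913910, minus strand: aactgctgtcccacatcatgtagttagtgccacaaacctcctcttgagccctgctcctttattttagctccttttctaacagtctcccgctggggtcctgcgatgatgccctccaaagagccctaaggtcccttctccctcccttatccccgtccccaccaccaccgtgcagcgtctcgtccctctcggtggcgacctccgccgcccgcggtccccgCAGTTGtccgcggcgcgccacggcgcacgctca
An E-box was present once in each of the windows of Tuba1c and Glrb, 1 of each direction, and these letters were not found in those of Gja4 and Magea10. Over the genes chosen by size that had a window, 15 higher and 12 lower with the globins included, CANNTG was in 17 of 22 windows (77.3%) of the higher and 8 of 14 windows (57.1%) of the lower genes, beside 66.2% of 32851 windows of all genes. The homeobox-type letters TAATTG, searched on both strands, were in 2 of 22 and none of 14 windows (7.17% of all), and TAATTA was in none of either (4.84% of all). A match is a description of letters and says nothing about binding.

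The transcription factors of primordial follicle formation were mostly higher in Dppa3-high cells. All 15 listed factors had a mean of at least 1 TPM, and 12 were higher and 1 lower, each of them also without any 1 cell. Several of these factors, the Id genes among them, were picked by the study from these same cells, so the count is no independent evidence of direction. Their median log2 ratio was 2.23, beside -0.07 over the 12383 coding genes with such a mean, of which 13.8% were higher and 14.6% lower. A gene could pass this mean through the group in which it was high, so the counts for this and the further lists are descriptions. With 1 TPM added, a gene at 0 TPM in 1 group that passed this mean in the other was counted by construction. Counts of the further lists are to be read beside these same shares. Lhx8, a LIM-homeobox factor, showed the least overlap. It lay at 0 to 359.6 TPM with a median of 84.04 TPM in Dppa3-low cells and at 225 to 1592 TPM with a median of 693 TPM in Dppa3-high cells. Of the 21 Dppa3-low cells 20 were below every Dppa3-high cell, whereas 15 of the 16 middle cells were not, and the log2 ratio was 2.93.

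Sohlh1 (log2 ratio 2.67) had a median of 18.7 TPM (0 to 355 TPM) in Dppa3-low, 286 TPM in middle and 363 TPM (34.9 to 968 TPM) in Dppa3-high cells. In 15 Dppa3-low cells it was below the lowest Dppa3-high cell. Figla, which activates the zona genes, was present in every Dppa3-low cell, at 1.87 to 1551 TPM with a median of 241 TPM, against 9.31 to 3867 TPM with a median of 1736 TPM in Dppa3-high cells. Its median was already 1390.2 TPM in middle cells, and the log2 ratio was 2.23. Nobox, a homeobox factor of early oocytes, had medians of 16.1, 187 and 305 TPM in Dppa3-low, middle and Dppa3-high cells and a log2 ratio of 2.07. Only 4 Dppa3-high cells were above the highest Dppa3-low cell, S071, and 24 were above every other Dppa3-low cell.

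Other factors on the list were Id2 (3.07), an inhibitor of helix-loop-helix proteins, Trp63 (3.40, or 4.20 without cell S103), the p63 gene of the oocyte quality checkpoint, Bhlhe41 (2.61), a transcriptional repressor, Stat3 (2.42), a cytokine-activated factor, and Foxo3 (1.497), which holds follicles dormant. Tbpl2, an oocyte TATA-binding protein paralogue, had a log2 ratio of 2.44 that rested on 6 Dppa3-high cells and was 1.78 without cell S133. Id3 had a log2 ratio of 1.37 and Id1 of 0.69, or 2.49 and 1.88 between means of log2(TPM + 1). Id1 was abundant in both groups, with medians of 1668 and 2429.7 TPM. Hes6, a helix-loop-helix factor, had a log2 ratio of 1.35. Taf4b, a germ cell TFIID subunit, was lower (-1.35) with medians of 44.2 and 16.9 TPM, and Sohlh2, the partner of Sohlh1, was at -0.80, or -1.37 between means of log2(TPM + 1).

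**Figure D3:**
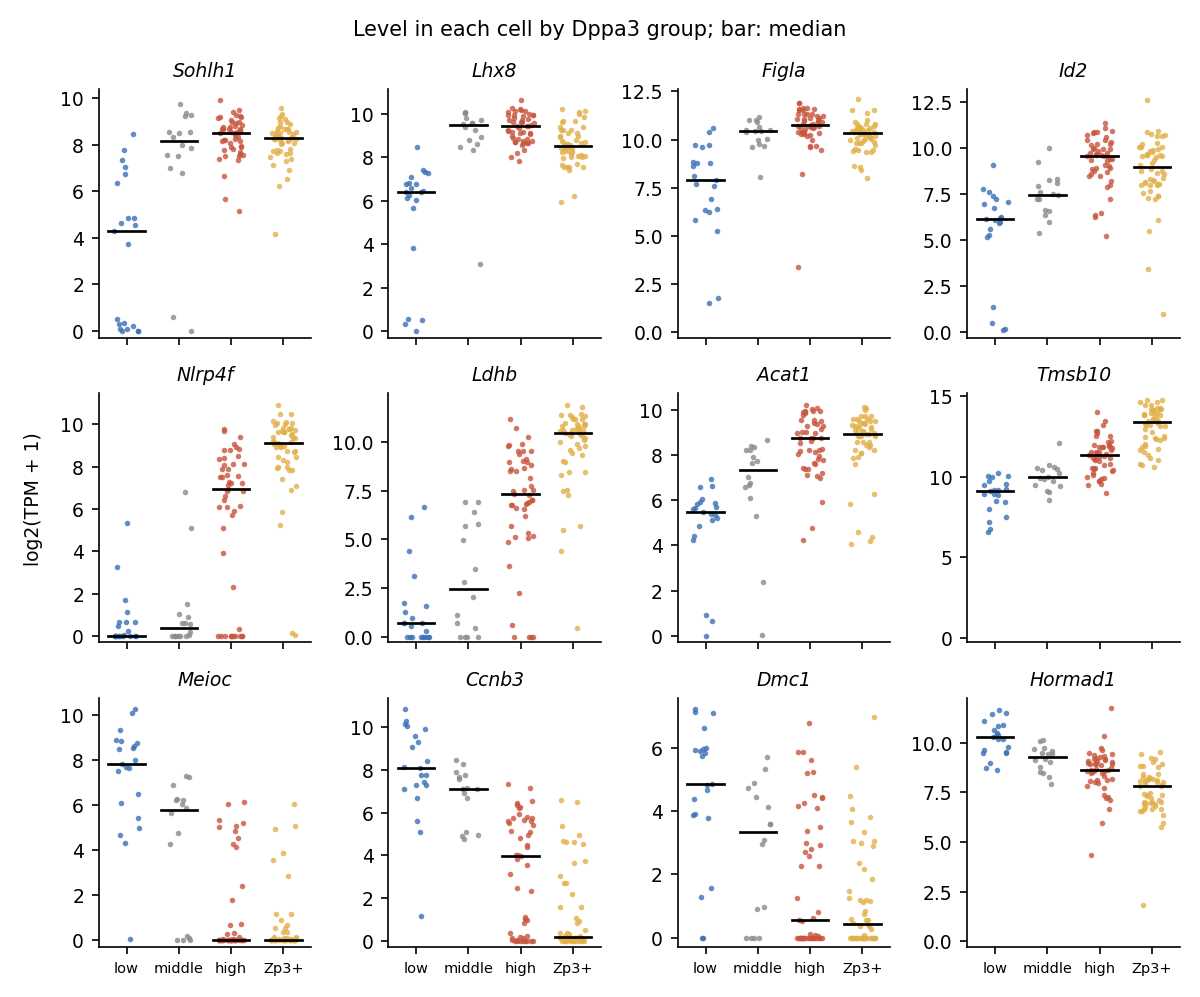
Level of 12 genes in each cell as log2(TPM + 1), by group, with 1 point per cell and a bar at the median; Zp3+ stands for the 52 cells with at least 1 TPM of Zp3. The follicle factors Sohlh1, Lhx8 and Figla are at nearly the same median in middle and high cells, Nlrp4f and Ldhb differ mainly between middle and high cells, and Meioc and Ccnb3 have lower medians in high than in middle cells and in middle than in low cells.

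Cells with little Dppa3 varied in these factors. Of the 21 Dppa3-low cells, 19 had at least 1 of Sohlh1, Nobox, Figla and Lhx8 at or above the lowest Dppa3-high cell, and 5 had at least 3 of the 4. The count of 19 was set by Figla, whose lowest Dppa3-high cell was far below the Dppa3-high median. It includes cells with Sohlh1 and Nobox near 0, such as S002 and S026. At the median of the Dppa3-high cells or above it, 19 had none of the 4. Cell S071 stood apart from the rest. It had 355 TPM of Sohlh1, 603 TPM of Nobox, 1551 TPM of Figla, 359.6 TPM of Lhx8 and 18.9 TPM of Meioc, and it was the only Dppa3-low cell with Lhx8 in the range of the Dppa3-high cells. Without it the log2 ratio was 3.11 for Sohlh1, 2.63 for Nobox, 2.45 for Figla and 3.15 for Lhx8. Middle cells were mixed, since 15 of 16 had Lhx8 and 14 had Sohlh1 in the Dppa3-high range, while 6 still had Meioc above every Dppa3-high cell.

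The other zona genes were listed with those of the egg. Zp2, which encodes another zona glycoprotein, was higher in Dppa3-high cells although Zp3 was off in all of them by the rule. It reached 1 TPM in 2 of 21 Dppa3-low cells (9.52%, 95% exact binomial interval 1.17 to 30.4%), 3 of 16 middle cells and 34 of 49 Dppa3-high cells (69.4%, 54.6 to 81.7%). Its medians were 0.108, 0.0593 and 34.7 TPM, with highest values of 28.6, 80.4 and 311 TPM. In 28 Dppa3-high cells Zp2 was above every Dppa3-low cell, and the log2 ratio was 4.31, or 5.09 without cell S088. Zp1 was on in only 4 Dppa3-high cells, with 55.9 TPM at most and no Dppa3-low cell above 0.16 TPM (log2 ratio 2.38).

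Of 17 genes of the subcortical maternal complex, an egg protein assembly, and the Nlrp family, 10 had a mean of at least 1 TPM and 9 were higher, 5 of them also without any 1 cell and 5 between means of log2(TPM + 1). Their median log2 ratio was 2.28. Part of the count was fixed by the limit of 1 TPM, as for Nlrp2, with means of 0 and 1.03 TPM (1.02). Nlrp5, a core gene of the complex also called Mater, reached 1 TPM in 1 Dppa3-low cell (1.52 TPM), 1 middle cell and 17 Dppa3-high cells, in which it ran up to 915 TPM. The median was 0.0302 TPM in Dppa3-high cells, so that Nlrp5 was on in a minority of them, and its log2 ratio of 5.91 rested on those cells. Padi6, which encodes a component of egg cytoplasmic lattices, had a log2 ratio of 5.30 (4.43 without cell S112) with 11 Dppa3-high cells at 1 TPM or more. Ooep and Tle6, which encode other members of the complex, were detected in most cells of both groups, and their log2 ratios of 1.19 and 1.07 did not stay past 2-fold without any 1 cell. The median of Tle6 was 65.9 TPM in Dppa3-low and 222 TPM in Dppa3-high cells. Nlrp14 was on in 6 Dppa3-high cells only, up to 77.8 TPM.

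Of 28 genes of maternal effect and oocyte growth, 27 were found in the files, 15 had a mean of at least 1 TPM, and 11 were higher, each also without any 1 cell, and none lower. Between means of log2(TPM + 1) 8 were higher. The median log2 ratio was 2.02. Ybx2, which encodes an RNA-storage protein of germ cells, was at 0.123 to 488 TPM with a median of 157 TPM in Dppa3-low cells and at 153 to 2012 TPM with a median of 562 TPM in Dppa3-high cells. Ybx2 was above the highest Dppa3-low cell in 29 of 49, and its log2 ratio was 2.02. Ccno, which encodes a cyclin-like protein, had medians of 0.0491, 8.21 and 173 TPM and a log2 ratio of 4.81, or 5.75 without cell S088. Kit, the receptor for the granulosa-cell ligand KITL, was on in all Dppa3-high cells, with medians of 56.1 and 157 TPM and a log2 ratio of 1.32. Tcl1, an AKT coactivator gene, had a log2 ratio of 2.84 that was 4.56 without cell S071.

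Several genes of the growing oocyte reached 1 TPM in fewer Dppa3-high cells than not. H1foo, the oocyte linker histone, reached 1 TPM in 14 of them, Gdf9, an oocyte growth factor, in 11, Mos, a kinase of oocyte maturation, in 8, and Oas1e in 6, all with a median of 0 TPM. Their log2 ratios were 4.56, 3.63, 2.60 and 3.14. In Dppa3-low cells the highest value of these genes was 1.33 TPM, for Gdf9. Among middle cells 1 had 29.2 TPM of Gdf9 and 1 had 1.89 TPM of H1foo. Of the other genes measured, Cpeb1, a regulator of stored mRNA, was at 0.87 and Rnf114 at 0.36.

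Genes of DNA methylation and of known DPPA3 partners were mostly neither higher nor lower. Of 26 listed, 25 were found and 22 had a mean of at least 1 TPM. Among these 22, 7 were higher, 6 of them also without any 1 cell, and 1 was lower. Of all coding genes with such a mean, 13.8% were higher and 14.6% lower. The median log2 ratio was 0.16. Kdm1b, a histone demethylase needed to set methylation of maternal imprints, was at 0 to 259.6 TPM with a median of 17.9 TPM in Dppa3-low cells and at 3.25 to 976 TPM with a median of 307 TPM in Dppa3-high cells. Its groups overlapped in part, as 29 of 49 Dppa3-high cells exceeded all Dppa3-low cells and no Dppa3-low cell exceeded the Dppa3-high median. The log2 ratio of Kdm1b was 3.005. Zfp57, a zinc finger protein that maintains imprints, had a median of 0.0865 TPM in Dppa3-low, 0.337 TPM in middle and 116.9 TPM in Dppa3-high cells, and a log2 ratio of 3.81. Dnmt3b, a de novo methyltransferase, had a log2 ratio of 2.71, and Tet3, the dioxygenase that oxidises methylcytosine in the zygote, of 1.63, with medians of 0.841 and 8.85 TPM.

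Other genes of this list that were expressed did not reach 2-fold, except Hells, Gadd45a, Gadd45b and Apobec1. Dnmt1, the maintenance methyltransferase, had medians of 32.7 and 30.7 TPM and a log2 ratio of 0.07. Uhrf1, the DNMT1 cofactor that DPPA3 binds, was at 48.8 and 30.6 TPM (-0.36), and Dnmt3a, the main methyltransferase of the growing oocyte, at 16.2 and 17.5 TPM (-0.39). Dnmt3a was higher in the middle cells, at a median of 40.6 TPM. Trim28, the corepressor that ZFP57 recruits, was at -0.46, and the nuclear transport genes Kpnb1 and Xpo1 at -0.20 and -0.37. Hells, a chromatin remodeler of DNA methylation, was lower, with medians of 269.7 and 113.5 TPM and a log2 ratio of -1.25. Tet2 was at -0.94 and Kdm1a, a histone demethylase, at -0.64, or -1.39 and -1.46 between means of log2(TPM + 1), where 7 genes of the list were higher and 3 lower. The stress-response genes Gadd45a and Gadd45b were higher, with means of 9.53 and 24.6 TPM (1.28, or 1.92 without cell S086) and of 5.73 and 17.7 TPM (1.47). Apobec1, a cytidine deaminase gene and a neighbour of Dppa3, was counted as higher at 1.13, but was at 0.15 without cell S015.

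**Figure D4:**
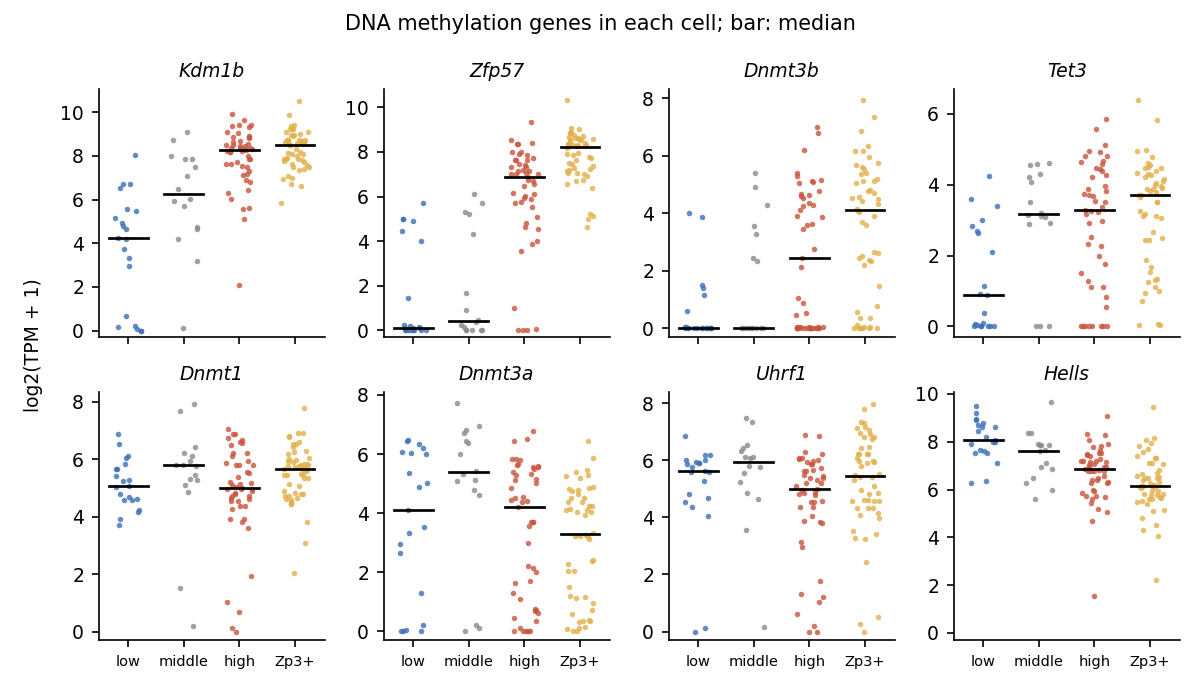
Level of 8 DNA methylation genes in each cell as log2(TPM + 1), by group, with 1 point per cell and a bar at the median; Zp3+ stands for the 52 cells with at least 1 TPM of Zp3. Kdm1b and Zfp57 are higher in high than in low cells, while Dnmt1, Dnmt3a and Uhrf1 overlap across all groups and Hells has its highest median in low cells.

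Dppa3 is itself a pluripotency and primordial germ cell gene. The counts of that list stand beside 13.8% higher and 14.6% lower of all coding genes with a mean of at least 1 TPM. Of 29 listed genes 17 had a mean of at least 1 TPM, with 5 higher and 2 lower, of which 3 and 1 stayed so without any 1 cell, and the median log2 ratio was 0.35. Between means of log2(TPM + 1), 0 of these 17 were at least 2-fold higher and 3 were lower. Tfap2c (1.53), Lin28b (1.23) and Lin28a (1.22) stayed higher without any 1 cell, whereas Sall4 (1.13) did not. Zfp42 (Rex1), a pluripotency zinc finger gene, was lower, with medians of 28.5 and 0 TPM (-1.54). Dppa4 had medians of 64.9 and 21.5 TPM (-1.13), Dppa5a 39.8 and 47.4 TPM (0.44), and Trap1a 142.3 and 72.9 TPM (-0.66). Nanog, next to Dppa3 on the chromosome, did not exceed 1.61 TPM in any of the 86 cells. Of its other neighbours, Rimklb was at -0.17, Foxj2 at 0.02 and Necap1 at 0.13. C3ar1 was at -0.79, or -0.21 between means of log2(TPM + 1). It reached 1 TPM in only 2 Dppa3-low cells, up to 20.5 TPM, and 1 Dppa3-high cell, so its ratio rested on those cells. Slc2a3, a glucose transporter gene, was at -1.34 but near 0 in most cells of both groups, with medians of 0.0792 and 0.0420 TPM. Gdf3, at 1.61, was at 0.81 without cell S015.

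Of 52 expressed genes on 4 meiotic lists, 22 (42.3%) were lower in Dppa3-high cells and none higher, beside 14.6% lower of all coding genes with a mean of at least 1 TPM. Differences between the lists were not tested. Among the 8 synaptonemal complex genes, which build the scaffold between paired chromosomes, 1 (12.5%) was lower, a share near that of all genes, and the median log2 ratio was -0.20. Sycp1, the transverse filament gene, had medians of 1176 and 1118 TPM (0.03), and Sycp3, of the lateral element, 2039.6 and 3179 TPM (0.53). Sycp2, also of the lateral element, was at 438 and 121.55 TPM (-1.46). Six6os1 (-0.95), Tex12 (-0.85) and Syce2 (0.81) fell short of 2-fold, and 3 of the 8 were at least 2-fold lower between means of log2(TPM + 1).

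Of 9 genes of the meiotic cohesin and the HORMA-domain chromosome axis, 5 were lower, 3 of them also without any 1 cell, and none higher, with a median log2 ratio of -1.04. Hormad1, which marks unsynapsed chromosome axes, was at 393 to 3255 TPM with a median of 1278 TPM in Dppa3-low cells and at 19.7 to 3503 TPM with a median of 399 TPM in Dppa3-high cells. The groups overlapped, but 20 of 21 Dppa3-low cells were above the Dppa3-high median (log2 ratio -1.51). Hormad2 (-1.04) and Trip13 (-1.06), the ATPase gene that removes HORMADs from chromosomes, were near the 2-fold limit. The cohesin genes Stag3 and Smc1b were at -0.77 and -0.65.

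Of 24 recombination genes 23 were found and expressed, and 9 were lower, 7 of them also without any 1 cell, with none higher and a median log2 ratio of -0.70. Between means of log2(TPM + 1) 14 were lower. Dmc1, the meiotic strand-exchange recombinase, had a median of 27.7 TPM (0 to 147 TPM) in Dppa3-low, 9.26 TPM in middle and 0.478 TPM (0 to 109.2 TPM) in Dppa3-high cells (log2 ratio -2.09). Msh5 (-2.45), a crossover gene, and Cntd1 (-2.13), which is needed for crossover maturation, had medians of 49.5 and 79.7 TPM in Dppa3-low cells against 0 and 0.2 TPM. For both, the difference lay between Dppa3-low and middle cells (-2.43 and -2.14) and not between middle and Dppa3-high cells (-0.02 and 0.01). Meiob (-1.78), Mcmdc2 (-1.48), Spo11 (-1.42), the break-forming enzyme, and Hfm1 (-1.37) were lower as well. Tex15 was at 0.44.

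Of 15 genes of meiotic entry and telomere attachment 12 were found and expressed, and 7 were lower, 5 of them also without any 1 cell, with a median log2 ratio of -1.04. This count includes Meioc and Mtl5. Spdya, an activator of CDK2 at meiotic telomeres, was at 0 to 834 TPM with a median of 278 TPM in Dppa3-low and at 0 to 702 TPM with a median of 0.132 TPM in Dppa3-high cells. It was above the Dppa3-high median in 20 of 21 Dppa3-low cells, and the log2 ratio was -2.33. Dmrtc2, with medians of 168 and 48.8 TPM, was at -1.73, and Sun1, the nuclear envelope anchor of telomeres, at -1.46. Cdk2 was at -0.69. Stra8, the retinoic acid target that starts meiosis, was off in nearly all cells, with 1 Dppa3-low and 5 Dppa3-high cells at 1 TPM or more.

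Cell cycle genes went both ways, with 5 higher and 6 lower of 23, of which 4 and 4 stayed so without any 1 cell, and 2 were higher and 6 lower between means of log2(TPM + 1). Top2a, topoisomerase II alpha, was lower, with medians of 88.1, 18.4 and 4.17 TPM in Dppa3-low, middle and Dppa3-high cells (-2.85), as was Cdc20, an activator of the anaphase-promoting complex, at 197, 39.98 and 61.8 TPM (-1.63). Wee2, the oocyte kinase that holds meiotic arrest, was on in 1 Dppa3-low and 17 Dppa3-high cells (4.32), and Ube2c, a ubiquitin-conjugating enzyme of the anaphase-promoting complex, was at medians of 142.8 and 199 TPM (1.39). Cdk1 was at 0.58.

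Of 19 expressed piRNA and transposon control genes 4 were higher, each also without any 1 cell, and none lower. Gtsf1, a piRNA factor, had medians of 129.8 and 602 TPM and was above every Dppa3-low cell in 31 of 49 Dppa3-high cells (log2 ratio 2.75). Tdrd1, a Tudor protein of germ granules, was at 14.3 and 71.1 TPM (2.03). Mov10l1 (0.01) and Mael (-0.15) were level. Germline RNA-binding genes were 5 higher and 2 lower of 19, with 3 and 1 left without any 1 cell, and Dazl, the general germ cell marker of that list, had medians of 579.8 and 539 TPM (-0.14). Boll was lower, at 75.8 and 10.7 TPM (-1.47).

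A list of surface and transiently expressed genes had 11 of 12 higher, each also without any 1 cell, and a median log2 ratio of 2.38. It was in part chosen by the study on these cells and is no independent evidence of direction. Anxa7, which encodes a membrane-binding annexin, had a median of 29.6 TPM (0 to 293 TPM) in Dppa3-low and 440.4 TPM (3.49 to 931 TPM) in Dppa3-high cells and exceeded all Dppa3-low cells in 34 of 49 (3.15). Cd55, a complement regulator, was at medians of 1.15 and 174 TPM (2.98, or 3.64 without cell S071), Tspan13, a tetraspanin, at 33.9 and 190.1 TPM (2.63), and Sdc1, syndecan 1, at 0.125 and 65.2 TPM (1.90, or 2.49 without cell S036). Ddah1 was already at 63.8 TPM in middle cells against 0.0853 TPM in Dppa3-low and 58.4 TPM in Dppa3-high cells (2.14).

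Apoptosis and DNA damage genes were 5 higher and 1 lower of 21 expressed, with 3 and 1 left without any 1 cell, and 0 higher and 2 lower between means of log2(TPM + 1). Bcl2l10, an oocyte member of the BCL2 family, was on in 8 Dppa3-high cells, up to 136.5 TPM, while no Dppa3-low cell exceeded 0.437 TPM (3.43). Bax, the pro-apoptotic member, was abundant in both groups, at 313 and 600.1 TPM (0.53). Of 11 expressed immediate early and stress genes, which respond to cell handling, 5 were lower, of which only Dusp1 (-3.38) stayed so without any 1 cell, and 3 were lower between means of log2(TPM + 1). Dusp1, a phosphatase gene, reached 1 TPM in 8 of 21 Dppa3-low cells, with a highest value of 50.9 TPM, and did not exceed 0.0959 TPM in any middle or Dppa3-high cell.

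The middle cells showed at which step of Dppa3 the lists differed. Follicle transcription factors differed by a median of 1.11 (0.95 to 1.33 leaving out any 1 cell) between Dppa3-low and middle cells, against 0.46 (0.39 to 0.54) between middle and Dppa3-high cells. The first step was the larger for 9 of the 13 that were higher or lower, whereas Id2 (1.29 and 1.79), Stat3 (0.90 and 1.52), Tbpl2 (-0.0044 and 2.45) and Taf4b (-0.49 and -0.86) differed more at the second. The surface list had 1.89 (1.71 to 2.14) and 0.95 (0.86 to 1.10) for the same steps. Subcortical maternal complex and Nlrp genes were at 0.14 (0.01 to 0.40) and then 2.43 (2.24 to 2.79). Maternal effect genes had 0.41 (0.36 to 0.89) and 1.89 (1.37 to 1.96). Members of both lists, such as Nlrp5, Padi6, Nlrp14, H1foo and Mos, passed the mean of 1 TPM only through Dppa3-high cells. This favours a larger second step, so the order of steps in both lists is a description only. The cohesin and HORMA list was at -0.65 (-1.04 to -0.53) and then -0.32 (-0.39 to -0.23). The recombination list was at -0.51 (-0.61 to -0.37) and -0.35 (-0.41 to -0.24). The meiotic entry list was at -0.52 (-0.64 to -0.35) and -0.85 (-0.90 to -0.74). The ranges give the weight of single cells and not sampling spread, so neither overlap nor a gap between them tests a difference between steps. Differences between lists in the order of these steps were not tested.

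**Figure D5:**
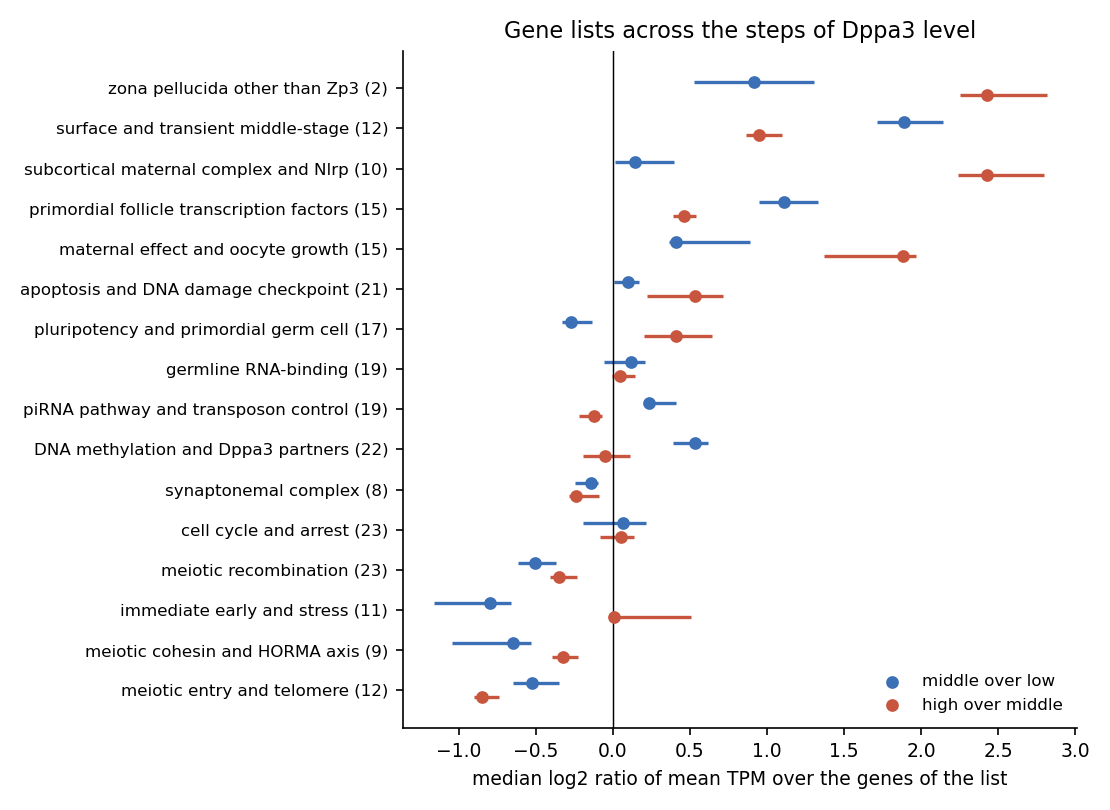
Median log2 ratio of mean TPM over the genes of each list, for middle over low cells (blue) and high over middle cells (red); lines give the range when any 1 cell is left out, and the number of genes is in parentheses. Follicle transcription factors are at 1.11 and 0.46, and subcortical maternal complex and Nlrp genes at 0.14 and 2.43.

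Genes whose level followed Dppa3 most closely were found by Spearman's rho over the 86 cells, among 7401 genes. These values are a description, the points share the libraries and the total of each TPM column, and the group limits do not enter. Tmsb10, which encodes an actin monomer-binding thymosin, was first at 0.80, followed by Ldhb (0.76), Tmem14c (0.76), Cfl1 (0.74), cofilin, Zbed3 (0.74), Id2 (0.74), Acat1 (0.74), Serf2 (0.74), Rnaset2a (0.72) and Mphosph6 (0.72). Within the 49 Dppa3-high cells alone, Tmsb10 remained at 0.68, Cfl1 at 0.66, Ldhb, Tmem14c and Rnaset2a at 0.65 each, Serf2 at 0.63 and Mphosph6 at 0.61. Zbed3, Acat1 and Id2 were lower there, at 0.39, 0.39 and 0.37. Reads of Rnaset2a and its near-identical copy may be split between them.

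Tmsb10 was abundant in every cell, at 92.4 to 1196 TPM with a median of 562 TPM in Dppa3-low, 996 TPM in middle, 507 to 16379.5 TPM with a median of 2563 TPM in Dppa3-high cells and 10616 TPM in cells with Zp3. It exceeded every Dppa3-low cell in 40 of 49 Dppa3-high cells, and the log2 ratio was 2.57. Acat1, which encodes a mitochondrial thiolase, was at 0 to 123.3 TPM with a median of 44.1 TPM in Dppa3-low and 18.003 to 1203 TPM with a median of 435 TPM in Dppa3-high cells. Only 3 Dppa3-high cells were within its Dppa3-low range, the fewest among the genes described here other than Dppa3 (log2 ratio 3.38). Cfl1 and Serf2 differed less in size, by 1.20 and 1.18.

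The lowest values of rho were those of Ccnb3 (-0.77), Maoa (-0.74), monoamine oxidase A, Meioc (-0.72), Eif4a2 (-0.70), a translation initiation helicase, and Hdac1 (-0.68), a histone deacetylase. Maoa was at 11.3 to 379 TPM with a median of 120.4 TPM in Dppa3-low and 0 to 273 TPM with a median of 16.99 TPM in Dppa3-high cells (log2 ratio -2.16). Hdac1 had medians of 190.3, 152 and 47.7 TPM in Dppa3-low, middle and Dppa3-high cells (-1.55), and every Dppa3-low cell was above the Dppa3-high median. Within Dppa3-high cells rho was -0.53 for Maoa, -0.52 for Eif4a2, -0.50 for Ccnb3, -0.32 for Meioc and -0.30 for Hdac1.

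Genes of the X chromosome were lower as a group in Dppa3-high cells, a comparison added after 5 of the 15 lower genes with the largest ratios (Magea10, Ccnb3, Ctps2, Otud6a and Gm8334) were seen to be X-linked. Of 258 compared X-linked genes, 67 (25.97%) were lower and 15 (5.81%) higher, with a median log2 ratio of -0.45. Of 6937 autosomal genes, 8.87% were lower and 9.44% higher, with a median of -0.05, and the share lower on a single autosome ran from 6.52 to 11.8%. X-linked genes took 2.75 to 5.60% of the TPM of these genes in Dppa3-low cells, with a median of 3.88%, and 2.07 to 4.26% with a median of 3.13% in Dppa3-high cells. The groups overlapped, but 19 of 21 Dppa3-low cells were above the Dppa3-high median and only 1 of 49 Dppa3-high cells was above the Dppa3-low median. Middle cells had a median of 3.79% and cells with Zp3 one of 2.67%. The X-linked median log2 ratio was -0.07 for middle over Dppa3-low cells (autosomes 0.03) and -0.35 for Dppa3-high over middle cells (autosomes -0.06). Under 14 other settings the X-linked median stayed below the autosomal one, by 0.35 to 0.56, and leaving out any 1 cell it did so by 0.33 to 0.45 (0.40 with all cells).

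Markers of other ovarian cell types had low medians in both groups. Libraries positive for Foxl2 had been left out before sequencing, so low pregranulosa levels were partly fixed by that choice. The summed level of 15 pregranulosa markers had a median of 0.997 TPM (0 to 66.6 TPM) in Dppa3-low and 2.17 TPM (0 to 82.1 TPM) in Dppa3-high cells. Of the 3 with a mean of at least 1 TPM, only Kitl (1.56) was higher, and it did not stay so without any 1 cell. For 10 stroma markers the summed level was 7.61 TPM (0 to 295.4 TPM) and 13.3 TPM (0 to 915.4 TPM, in cell S076). Of the 6 stroma markers with a mean of at least 1 TPM, 3 were higher and 1 lower, with a median log2 ratio of 1.303. Between means of log2(TPM + 1), 0 were higher and 0 lower, with a median of -0.13. Mfap4 (2.27, or 3.61 without cell S088) and Dcn (2.16) stayed higher without any 1 cell, whereas Col3a1 was at 2.22, or -1.09 without cell S076. The part of these cells or of the globin RNA in the differences was not tested, beyond the values given without library S126. Without that library 658 genes were higher and 741 lower.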

How the data were processed

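Gene-level tables of 146 libraries were used. The study left out some of its cells by quality control. That filter was not applied here, so the groups may hold libraries that the study did not analyse. Per the labels and the study's methods, the authors checked reads with FastQC and quantified them with Salmon on mm10. The annotation release is not given in the sources used here. Each deposited table holds TPM, which is scaled to the same total in each library and so keeps no depth, and the estimated count of reads per gene, which served for depth and for CPM. The members and gene lists were chosen with earlier results of these data known.

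Genes compared were coding (GENCODE or RefSeq names, 19780 of 52605 symbols), averaged at least 10 TPM in Dppa3-high or Dppa3-low cells, reached 0.1 TPM in 50% of the cells of the higher group, and excluded Dppa3, Zp3 and Ddx4. Listed genes needed a mean of 1 TPM. Named genes were the 15 in each direction with the largest log2 ratio that were also past 2-fold between means of log2(TPM + 1) and when any 1 cell was left out, members of the lists, the 10 genes most like Dppa3 and the 5 least like it, and neighbours of Dppa3 on the chromosome. The pseudocount was 1 TPM. Libraries were taken as repeats above r = 0.95. Alternatives were another pseudocount, filter, fold, scaling or set of cells, and leaving out each cell. Python 3.11.15, pandas 2.3.3, NumPy 2.4.6, SciPy 1.17.1 and matplotlib 3.10.9 were used, and the scripts were tested on simulated data. Some named genes are not reported here.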

Additional observations from a re-analysis of the deposited data

How the results depend on the processing

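No paired analysis was possible because the labels give no groups, no replicate numbers and no animal, and no test was run. All 30 genes chosen by size kept their direction and their side of 2-fold under the 14 other settings run for them, which is partly fixed, since the choice itself required 2-fold between mean log2 values and without any 1 cell, and Ddx4 of at least 10 TPM left the same cells. With no filter on low genes 1703 were higher and 1813 lower, and with 1.5-fold as the limit 1399 and 1624. Lower genes numbered 1687 as a difference of mean log2 values and 1149 relative to the spike-ins, and higher genes 1124 in cells with at least the median reads and 1033 in cells at or below the median mitochondrial share. The cohesin and HORMA median was -0.98 with Dppa3 of at least 50 or at least 200 TPM and with each library as a cell, -0.79 with Dppa3-low below 1 TPM, -0.999 with at least the median reads, -0.93 with Sohlh1 of at least 10 TPM, and -1.09 to -0.92 leaving out any 1 cell. The meiotic entry median was -0.89 (at least 50 TPM), -0.86 (below 1 TPM), -0.93 (each library) and -1.24 to -0.86 leaving out any 1 cell. The recombination median was -1.46 on the mean log2 scale and -1.04 relative to the spike-ins. The immediate early median was -1.10 relative to the spike-ins, -1.07 with at least 200 TPM, -1.09 with at least the median reads and -1.14 to -0.31 leaving out any 1 cell. Mfap5, a neighbour of Dppa3 near the detection limit, reversed from -0.18 to 1.10 in cells with at least the median reads and to 1.65 in cells of low mitochondrial share. The causes were not tested. A gene listed at 0 TPM in a cell was not detected at the depth of that library, which does not show that it is absent, and genes found in few cells rest on those cells.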
